A study of Mus musculus with 11 samples.

Results

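The 8 genes described here encode the ErbB signaling system of the developing heart and the ephrin-B2 pathway beside it: the ligands *Nrg1* and *Hbegf*, the receptors *Erbb2*, *Erbb3*, *Erbb4* and *Egfr*, and the ephrin ligand *Efnb2* with its receptor *Ephb4*. They were chosen by name as genes of this signaling in heart development, with earlier results of these data known. They were read out of 55487 genes counted in each heart. Hearts came from untreated E14.5 mouse embryos of the strain B6; 129P2-Pde2A<tm1Dgen>, obtained from matings of heterozygous parents, and both sexes were used. Of them, 5 were *Pde2A-/-*, which carry a constitutive knockout of phosphodiesterase 2A, and 6 were *Pde2A+/+*. Each heart gave 1 library from whole cardiac tissue, so a gene's value is a mean over all cell types of the heart. The question was how the loss of this enzyme, which breaks down cAMP and cGMP, changed the transcripts of the embryonic heart.

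Trabeculae are the muscular ridges that grow from the inner face of the ventricle wall. Neuregulin-1 is released by the endocardium and binds ErbB4 on the neighbouring cardiomyocytes, where ErbB4 pairs with ErbB2, a receptor without a ligand of its own. Mice without *Nrg1*, *Erbb2* or *Erbb4* fail to form trabeculae, and ephrin-B2 and EphB4, which mark arterial and venous endothelium, are also required. ErbB3 acts with ErbB2 in cushion mesenchyme and neural crest derivatives, and heparin-binding EGF-like growth factor acts through the EGF receptor in the shaping of the valves.

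The libraries held 35865537 to 42835382 sense-strand counts each. *Pde2a* itself had between 0 and 2 counts in each library, 7 in all, too few to check the genotype labels. Another annotated gene on the same strand, *Gm45837*, shares 64.3% of its exon bases, and STAR assigns a read lying on both genes to neither. Reads on the unshared bases would still be counted, and why the counts were so low was not tested. They are therefore not read as its expression. Cardiomyocyte markers were abundant in every heart, with summed values of 43467 to 58757 CPM, the counts of a gene scaled to library size by the TMM method of edgeR. Lung markers summed to 41.2 CPM in *Pde2A+/+* heart 7 and 61.6 CPM in *Pde2A+/+* heart 11, against at most 4.60 CPM in the other hearts, and thymus markers to 86.3 CPM in *Pde2A+/+* heart 7 against at most 3.19 CPM elsewhere. Liver markers, highest in *Pde2A+/+* heart E with 118 CPM, varied in both genotypes. Skeletal muscle markers summed to 258 CPM in *Pde2A-/-* heart B and 274 CPM in *Pde2A-/-* heart D, against at most 189 CPM in the other hearts. The part of such tissue in the values of the members was not tested. Litters and batches are not named in the labels.

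*Erbb2* was lower in *Pde2A-/-* hearts and was the member whose difference passed the test across all genes. With edgeR's quasi-likelihood test and Benjamini-Hochberg adjustment over 24177 genes, 1 of the 8 members (12.5%) had an adjusted p under 0.05, against 14.6% of all genes tested. By direction, 1 member was lower, where 5.67% of all genes were, and 0 were higher, where 8.93% were. At an unadjusted p under 0.05 there were 2 members, 1 of them higher. DESeq2 also called 1 member and 0 higher, beside 5145 of the 24177 genes called in either direction. None of the members reached a 2-fold change with an adjusted p under 0.05 in edgeR or DESeq2, a size that 2.59% of all genes reached, and at an unadjusted p under 0.05 their number was also 0. The median log2 fold change of the members was 0.08, beside -0.02 for all genes. In 1 of the 8, all hearts of one genotype lay apart from all hearts of the other, compared with 8.49% of all genes tested. A share near that of all genes is not a result about the members as a group, so each is described by itself.

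**Figure D1:**
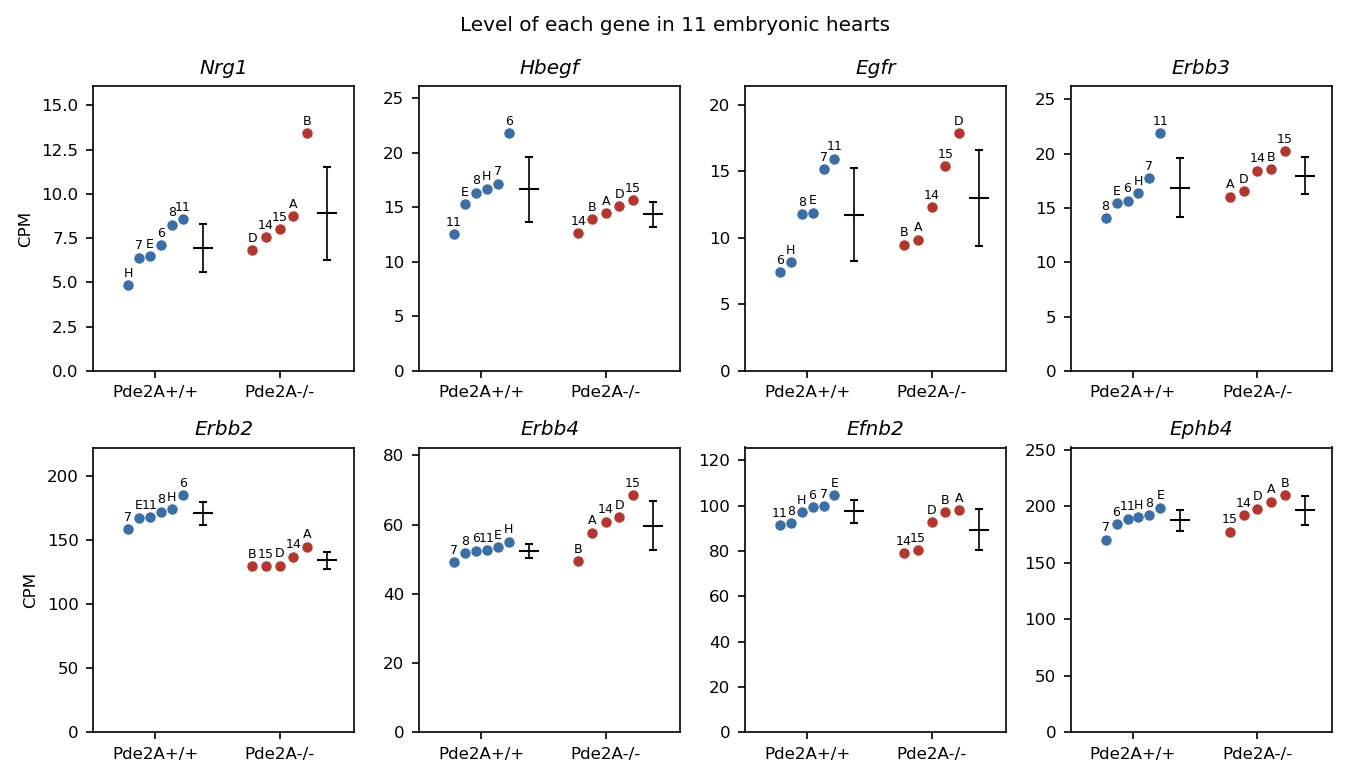
Level of each of the 8 genes, in CPM on linear axes from 0, in the 6 *Pde2A+/+* hearts (blue) and the 5 *Pde2A-/-* hearts (red), each point labelled with its replicate name and sorted by value, and the bar giving mean and SD. The genotypes separate for *Erbb2*, where the *Pde2A-/-* hearts lie between 129.7 and 145 CPM and the *Pde2A+/+* hearts between 159 and 185 CPM.

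*Erbb2* (ENSMUSG00000062312, chromosome 11, 98412470 to 98437716, plus strand, GRCm38) encodes the co-receptor that ErbB3 and ErbB4 need for strong signaling. Its values in the *Pde2A-/-* hearts were 145 CPM in A, 129.7 in B, 137 in 14, 130.2 in D and 130.0 in 15. In the *Pde2A+/+* hearts they ranged from 159 CPM in heart 7 over a median of 170.0 to 185 CPM in heart 6. All 5 *Pde2A-/-* hearts lay below all 6 *Pde2A+/+* hearts. The means were 134 ± 6.75 CPM (SD, n = 5) and 171 ± 8.86 CPM (SD, n = 6), a fall of 21.4% by the fitted fold change. The log2 fold change was -0.35 (SE 0.05, 95% interval -0.45 to -0.24, adjusted p = 0.00064 by edgeR's quasi-likelihood test). Over 19 other settings it stayed between -0.38 and -0.32, with adjusted p values of 8.16e-10 to 0.00258 from edgeR or DESeq2. In a whole heart, fewer cells that express a gene and less of its RNA in each cell cannot be told apart, which holds for every value given here.

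Of 18 cardiomyocyte markers, 16 had a log2 fold change below 0, and the median was -0.20. With edgeR 5 were lower and 0 higher in *Pde2A-/-* hearts (10 at an unadjusted p under 0.05). Among all genes 5.67% were lower and 8.93% higher. The mean log2 level of these markers, set to 0 at the *Pde2A+/+* mean, overlapped between the genotypes. It was -0.26 to -0.13 in *Pde2A-/-* and -0.15 to 0.18 in *Pde2A+/+* hearts. Relative to the mean log2 CPM of these markers in the same heart, *Erbb2* was still lower, by 0.16 on the log2 scale (exact permutation test, two-sided, adjusted p = 0.0234 over 18 ratios). The genotypes overlapped in this ratio, and without *Pde2A+/+* hearts 7 and 11 the difference of -0.14 had an adjusted p of 0.0635 by the same exact test. It also missed the threshold without *Pde2A-/-* heart B or 14, or without *Pde2A+/+* heart 7, 8 or E. Hypoxia response genes moved with the genotype as well, 13 of 15 being higher, and their part in the result was not tested.

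RefSeq gave a promoter window, from 250 bases before to 50 bases after the transcription start, for 5 of the 8 members: *Erbb2*, *Erbb4*, *Egfr*, *Efnb2* and *Ephb4*. Because cAMP acts on transcription through the cAMP response element, the windows were searched on both strands for its full form TGACGTCA and for TGACG, the shorter form contained in it, and also for ACGTG, the core of the hypoxia response element. The full form was in 0 of the 5 windows and in 1.79% of all 32851 windows of the table. ACGTG was in 0 of the 5 and in 19.6% of all. The shorter form was present in *Erbb2*, at 171 bases before the start on the opposite strand, and in *Efnb2*, at 110 bases before the start on the strand of the gene, as it was in 20.8% of all windows. The part from 250 to 51 bases before the start is shown for both because they hold these letters, 5′ to 3′ on the strand of the gene, with the letters of the shorter form in capitals (CGTCA where it lies on the opposite strand). It comes from GRCm38.p6, on the plus strand at chr11:98412234-98412433 for *Erbb2* and on the minus strand at chr8:8661293-8661492 for *Efnb2*.
Erbb2: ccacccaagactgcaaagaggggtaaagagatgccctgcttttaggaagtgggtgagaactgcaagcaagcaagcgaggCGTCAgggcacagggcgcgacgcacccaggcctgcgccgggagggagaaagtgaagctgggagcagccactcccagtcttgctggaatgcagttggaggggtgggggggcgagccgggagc
Efnb2: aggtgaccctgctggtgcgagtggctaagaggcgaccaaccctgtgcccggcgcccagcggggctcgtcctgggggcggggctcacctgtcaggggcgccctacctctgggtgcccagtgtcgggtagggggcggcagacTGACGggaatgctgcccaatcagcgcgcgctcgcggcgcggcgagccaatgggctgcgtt
These matches describe the letters of the windows and do not show that a factor binds there.

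*Erbb4* (ENSMUSG00000062209, chromosome 1, 68032186 to 69108059, minus strand) encodes the neuregulin receptor of cardiomyocytes. Its *Pde2A-/-* values were 57.7 CPM in A, 49.4 in B, 60.8 in 14, 62.3 in D and 68.6 in 15. The *Pde2A+/+* values ranged from 49.2 over a median of 52.5 to 55.0 CPM. Thus 4 of 5 *Pde2A-/-* hearts lay above every *Pde2A+/+* heart and heart B lay among them. The means were 59.8 ± 7.02 CPM (SD, n = 5) and 52.4 ± 1.96 CPM (SD, n = 6), and the log2 fold change of 0.19 (SE 0.07, 95% interval 0.04 to 0.34) did not pass the test (edgeR adjusted p = 0.0845). Without *Pde2A-/-* heart B it was 0.25 and passed, with an adjusted p of 0.010 by edgeR. The spread between *Pde2A-/-* hearts was wider than between *Pde2A+/+* hearts, with coefficients of variation of 11.7% and 3.74%. Relative to the cardiomyocyte markers of the same heart *Erbb4* was higher by 0.37 on the log2 scale (exact permutation test, two-sided, adjusted p = 0.0195), with overlapping genotypes. This ratio missed the threshold without *Pde2A+/+* heart 7, 8 or E, each time with an adjusted p of 0.0571 by the exact test.

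**Figure D2:**
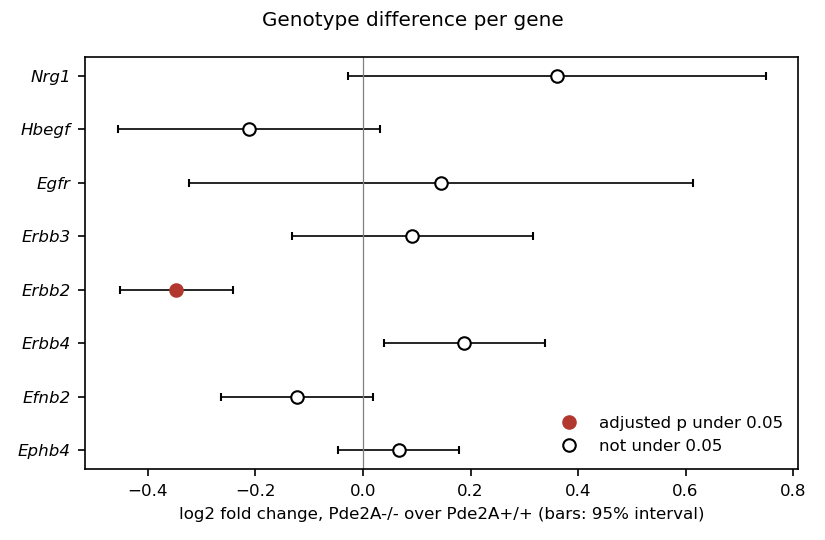
Fitted log2 fold change of each member, *Pde2A-/-* over *Pde2A+/+*, with its 95% interval from edgeR, filled where the adjusted p is under 0.05. The filled point is *Erbb2* at -0.35, and the widest intervals belong to *Egfr* and *Nrg1*.

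*Erbb3* (ENSMUSG00000018166, chromosome 10, 128567523 to 128589652, minus strand), the neuregulin receptor with an impaired kinase, had 16.1, 18.6, 18.4, 16.5 and 20.2 CPM in *Pde2A-/-* hearts A, B, 14, D and 15. In *Pde2A+/+* hearts it ranged from 14.1 over a median of 16.0 to 21.8 CPM, and the genotypes overlapped. The log2 fold change was 0.09 (SE 0.10, 95% interval -0.13 to 0.32, edgeR adjusted p = 0.61). The 2 highest *Pde2A+/+* values, 21.8 CPM in heart 11 and 17.7 CPM in heart 7, came from the hearts with lung markers. Without these hearts the log2 fold change was 0.22 with an adjusted p of 0.114 by edgeR.

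*Egfr* (ENSMUSG00000020122, chromosome 11, 16752203 to 16918158, plus strand) encodes the receptor for EGF-like ligands. It had 9.87, 9.49, 12.3, 17.8 and 15.4 CPM in *Pde2A-/-* hearts A, B, 14, D and 15, and 7.40 to 16.0 CPM with a median of 11.8 in *Pde2A+/+* hearts. Hearts of both genotypes lay at either end of the range. It was among the most variable members, with coefficients of variation of 27.7% and 29.8%, and its log2 fold change of 0.15 (SE 0.22, 95% interval -0.32 to 0.61, edgeR adjusted p = 0.71) did not pass the test. Hearts 7 and 11 again held the 2 highest *Pde2A+/+* values, 15.2 and 16.0 CPM, and without them the log2 fold change was 0.40 with an adjusted p of 0.237 by edgeR. Single hearts also decided its size, which was 0.01 without *Pde2A-/-* heart D, 0.08 without *Pde2A-/-* heart 15, 0.05 without *Pde2A+/+* heart 6 and 0.06 without *Pde2A+/+* heart H (edgeR adjusted p = 0.993, 0.880, 0.910 and 0.893). It was 0.24 without *Pde2A-/-* heart A or B, 0.23 without *Pde2A+/+* heart 7 and 0.25 without *Pde2A+/+* heart 11.

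Because ErbB2 is shared by the other receptors, their levels were compared within each heart. Per kilobase of exon, the summed level of the 4 receptors was 34.8 ± 1.26 CPM per kb (SD, n = 5) in *Pde2A-/-* and 40.9 ± 1.47 CPM per kb (SD, n = 6) in *Pde2A+/+* hearts, in separate ranges (two-sided exact permutation test, p = 0.0022, which is the lowest value that 462 splits allow). *Erbb2* held 77.2, 75.9, 74.4, 72.7 and 70.9% of that sum in *Pde2A-/-* hearts A, B, 14, D and 15, against 77.6 to 82.6% in *Pde2A+/+* hearts. Every *Pde2A-/-* heart lay below every *Pde2A+/+* heart, by a narrow margin for A. The mean share fell by 6.01 percentage points (exact permutation test, two-sided, adjusted p = 0.0043 over 4 shares). *Erbb4* held 13.9 ± 1.40% and 10.4 ± 0.36%, also without overlap and with the same adjusted p by the exact test. The *Erbb3* share was 8.60 ± 0.91% against 6.86 ± 1.13% (exact permutation test, adjusted p = 0.0375), with overlapping genotypes, and in 8 of the 11 settings that left out 1 heart it missed the threshold. The *Egfr* share was 3.30 ± 0.92% against 2.55 ± 0.81% (exact permutation test, adjusted p = 0.184), a difference of 0.75 percentage points that became 1.19 without *Pde2A+/+* hearts 7 and 11 (exact permutation test, adjusted p = 0.0794) and 0.43 without *Pde2A-/-* heart D. The 4 shares sum to 100%, so they are not independent, and a fall of *Erbb2* alone raises the other 3.

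**Figure D3:**
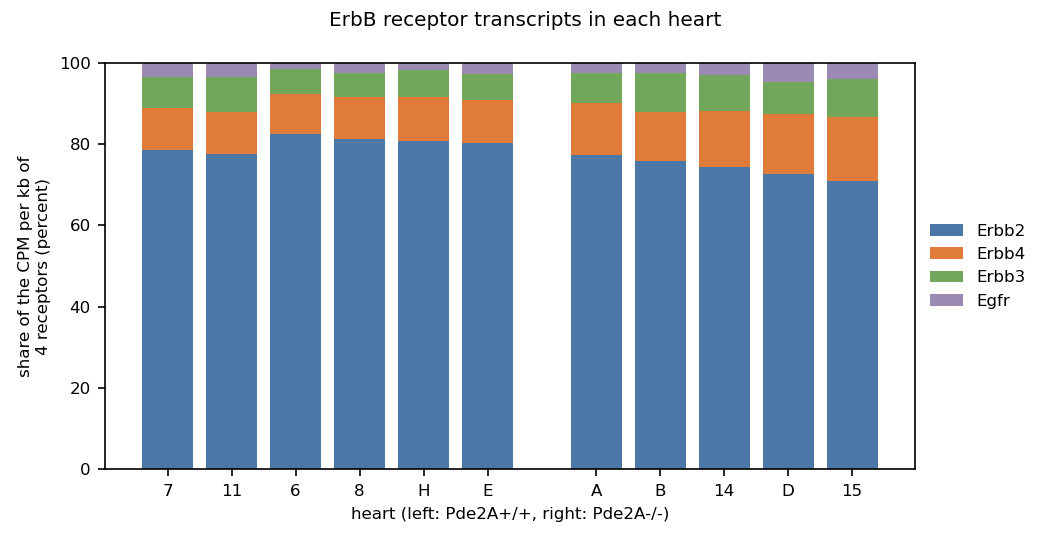
Share of each ErbB receptor in the summed CPM per kilobase of exon of the 4 receptors, in percent, with 1 bar per heart, *Pde2A+/+* on the left and *Pde2A-/-* on the right. *Erbb2* takes 77.6 to 82.6% on the left and 70.9 to 77.2% on the right, and the *Erbb4* segment grows from 9.86 to 10.8% on the left to 12.2 to 15.8% on the right.

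The ratio of *Erbb4* to *Erbb2*, taken from CPM within a heart and therefore free of library scaling, was 0.398, 0.381, 0.443, 0.479 and 0.528 in *Pde2A-/-* hearts A, B, 14, D and 15. In *Pde2A+/+* hearts it ranged from 0.283 to 0.319. The genotypes were clearly apart, and the *Pde2A-/-* ratio was 1.44-fold that of *Pde2A+/+*, 0.53 on the log2 scale (exact permutation test, two-sided, adjusted p = 0.0195 over 18 ratios). This ratio kept its call in all 14 settings tried for it, between 0.46 and 0.58, with adjusted p values of 0.0195 to 0.0476 by the exact test. *Erbb3* relative to *Erbb2* was higher by 0.45 on the log2 scale (exact permutation test, adjusted p = 0.0445, overlapping genotypes), and in 9 of the 14 settings, each leaving out 1 heart, it missed the threshold. *Egfr* relative to *Erbb2* differed by 0.51 (exact permutation test, adjusted p = 0.21), and by 0.77 without *Pde2A+/+* hearts 7 and 11 (exact permutation test, adjusted p = 0.100), which did not pass in either case.

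The ligand gene *Nrg1* (ENSMUSG00000062991, chromosome 8, 31814551 to 32884029, minus strand) was the lowest of the members per kilobase. Its *Pde2A-/-* values were 8.74 CPM in A, 13.4 in B, 7.54 in 14, 6.83 in D and 7.99 in 15. *Pde2A+/+* hearts ranged from 4.85 over a median of 6.79 to 8.59 CPM. Only hearts A and B exceeded all *Pde2A+/+* hearts, and heart B stood well above the rest. The log2 fold change was 0.36 (SE 0.18, 95% interval -0.03 to 0.75, edgeR adjusted p = 0.196) and 0.16 without heart B (edgeR adjusted p = 0.486). Its 195 to 568 counts per heart are reads of all isoforms together, so type I to III neuregulins were not told apart.

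*Nrg1* was also set against the genes of its receptors within each heart. The ratio of *Nrg1* to *Erbb2* was 0.0606, 0.104, 0.0553, 0.0528 and 0.0618 in *Pde2A-/-* hearts A, B, 14, D and 15 and 0.0281 to 0.0515 in *Pde2A+/+* hearts. The genotypes did not overlap, although *Pde2A-/-* heart D and *Pde2A+/+* heart 11 were close, and the difference was 0.69 on the log2 scale (exact permutation test, two-sided, adjusted p = 0.0195). It kept its call in all 14 settings, at 0.51 to 0.78. The ratio of *Nrg1* to *Erbb4* differed by 0.16 on the log2 scale (exact permutation test, adjusted p = 0.77). Without *Pde2A-/-* heart B its direction turned, to -0.07 (exact permutation test, adjusted p = 0.771), and without *Pde2A+/+* heart H it was 0.04. With edgeR 5 of 16 endothelial and endocardial markers were higher and 1 lower, beside 8.93% higher and 5.67% lower among all genes. These markers summed to 1941 to 2156 CPM in *Pde2A-/-* and 1575 to 1866 CPM in *Pde2A+/+* hearts, without overlap. Their mean log2 level, which the ratios use, did overlap, at 0.06 to 0.23 in *Pde2A-/-* and -0.14 to 0.09 in *Pde2A+/+* hearts when set to 0 at the *Pde2A+/+* mean. Relative to the mean of these markers, *Nrg1* differed by 0.20 on the log2 scale (exact permutation test, adjusted p = 0.47). This was 0.07 without *Pde2A-/-* heart B, 0.10 without *Pde2A+/+* heart H and 0.31 without *Pde2A+/+* hearts 7 and 11 (exact permutation test, adjusted p = 0.321).

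*Hbegf* (ENSMUSG00000024486, chromosome 18, 36504927 to 36515805, minus strand) had 14.48, 13.9, 12.6, 15.1 and 15.7 CPM in *Pde2A-/-* hearts A, B, 14, D and 15. *Pde2A+/+* hearts ranged from 12.6 over a median of 16.5 to 21.8 CPM, so the *Pde2A-/-* hearts sat in the lower part of the *Pde2A+/+* range. The log2 fold change was -0.21 (SE 0.11, 95% interval -0.46 to 0.03, edgeR adjusted p = 0.226), and -0.12 without *Pde2A+/+* heart 6 (edgeR adjusted p = 0.436). Relative to endothelial and endocardial markers it differed by -0.33 on the log2 scale (exact permutation test, adjusted p = 0.0536), and this passed the threshold without *Pde2A+/+* heart 11, without hearts 7 and 11 together, or with reads of both strands. Against its receptor *Egfr* the difference was -0.36 (exact permutation test, adjusted p = 0.47) and against *Nrg1* -0.53 (exact permutation test, adjusted p = 0.134). The difference against *Egfr* was -0.15 without *Pde2A+/+* heart 6 and -0.67 without *Pde2A+/+* hearts 7 and 11 (exact permutation test, adjusted p = 0.13).

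*Efnb2* (ENSMUSG00000001300, chromosome 8, 8617434 to 8661242, minus strand) encodes ephrin-B2, a membrane-bound ligand of arterial endothelium and endocardium. In *Pde2A-/-* hearts it had 97.9 CPM in A, 97.3 in B, 79.1 in 14, 92.8 in D and 80.4 in 15. In *Pde2A+/+* hearts it ranged from 91.5 over a median of 98.2 to 105 CPM. Hearts 14 and 15 were below every *Pde2A+/+* heart and the other 3 lay within the range. The log2 fold change was -0.12 (SE 0.07, 95% interval -0.26 to 0.02, edgeR adjusted p = 0.223). With the naming style of the hearts, letters or numbers, as a covariate it was -0.17 and passed with an edgeR adjusted p of 0.0428.

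*Ephb4* (ENSMUSG00000029710, chromosome 5, 137350109 to 137378669, plus strand) encodes the venous receptor of ephrin-B2 and was the most abundant member per kilobase. It had 204, 210.0, 192, 198 and 178 CPM in *Pde2A-/-* hearts A, B, 14, D and 15, and 171 to 199 CPM with a median of 189.7 in *Pde2A+/+* hearts. Hearts A and B exceeded the *Pde2A+/+* range and the rest were inside it. Its log2 fold change was 0.07 (SE 0.05, 95% interval -0.05 to 0.18, edgeR adjusted p = 0.44), and 0.03 without *Pde2A+/+* hearts 7 and 11 (edgeR adjusted p = 0.755).

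The ligand was lower relative to its receptor in *Pde2A-/-* hearts. The ratio of *Efnb2* to *Ephb4* was 0.480, 0.463, 0.412, 0.469 and 0.453 in *Pde2A-/-* hearts A, B, 14, D and 15, and 0.481 to 0.586 in *Pde2A+/+* hearts. The ranges did not overlap but nearly touched, at *Pde2A-/-* heart A and *Pde2A+/+* heart 8. The difference was -0.19 on the log2 scale (exact permutation test, two-sided, adjusted p = 0.026), and -0.16 with an adjusted p of 0.0714 by the exact test without *Pde2A-/-* heart 14. Relative to the endothelial and endocardial markers of the same heart, *Efnb2* was lower by 0.27 (exact permutation test, adjusted p = 0.0195), with ratios of 0.911 to 1.11 in *Pde2A-/-* and 1.15 to 1.37 in *Pde2A+/+* hearts, again without overlap. Without *Pde2A+/+* hearts 7 and 11 this was -0.23 with an adjusted p of 0.0612 by the exact test. Relative to 8 arterial markers *Efnb2* differed by -0.01 on the log2 scale (exact permutation test, adjusted p = 0.92). With edgeR 2 of these 8 were themselves lower and 0 higher, beside 5.67% lower and 8.93% higher among all genes. *Ephb4* differed by -0.07 relative to the endothelial list (exact permutation test, adjusted p = 0.24) and by 0.01 relative to 5 venous markers (exact permutation test, adjusted p = 0.92).

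**Figure D4:**
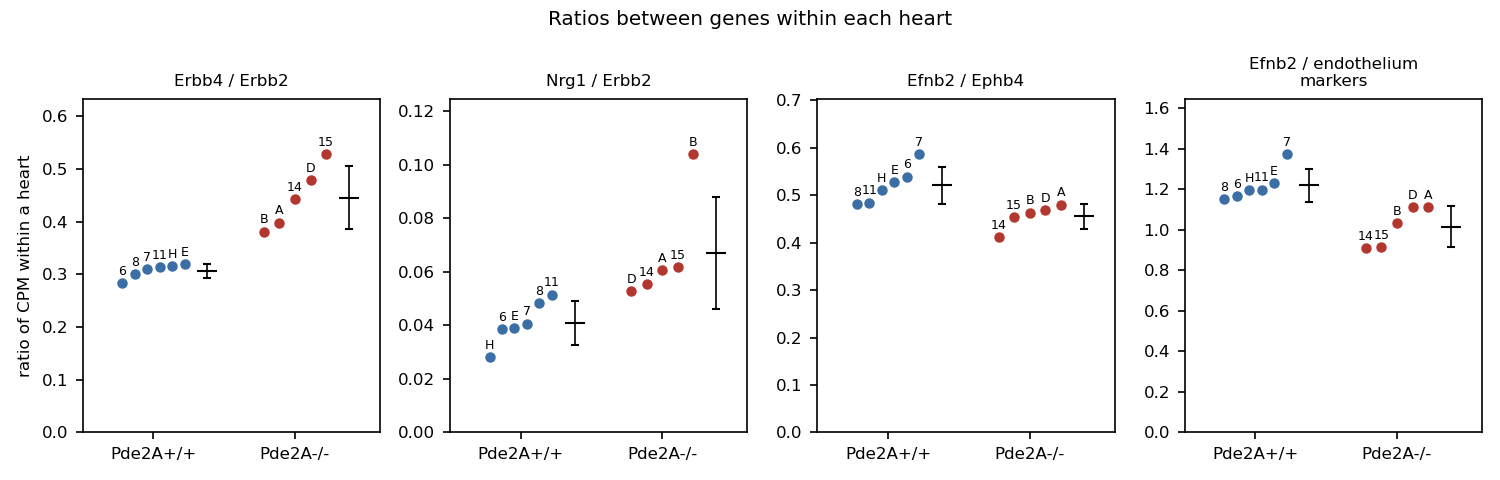
Ratio of CPM between members within each heart, on linear axes from 0, for *Erbb4* to *Erbb2*, *Nrg1* to *Erbb2*, *Efnb2* to *Ephb4*, and *Efnb2* to the geometric mean of 16 endothelial and endocardial markers, with the mean and SD beside the points. The genotypes separate in all 4 panels, widely for *Erbb4* to *Erbb2* (0.283 to 0.319 against 0.381 to 0.528) and narrowly for *Efnb2* to *Ephb4*, where the closest hearts are at 0.480 and 0.481.

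The remaining ratios, of *Egfr* to fibroblast and cushion mesenchyme markers and of *Erbb3* to epicardial markers, differed by -0.07 and -0.06 on the log2 scale (exact permutation test, adjusted p = 0.88 and 0.89). The direction of the former turned without *Pde2A+/+* hearts 7 and 11, to 0.15 (exact permutation test, adjusted p = 0.480), and that of the latter without *Pde2A+/+* heart H, to 0.06. In all, 7 of the 18 ratios had an adjusted p under 0.05 by the exact test. They share members and are not 7 separate results. *Erbb2* is in the called ratios of *Erbb4*, *Erbb3* and *Nrg1* to it and of it to cardiomyocyte markers. A fall of *Erbb2* alone moves each of these. The called ratios of *Efnb2* to *Ephb4* and to endothelial and endocardial markers share *Efnb2*.

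Ordered by level per kilobase of exon in *Pde2A+/+* hearts, the members ran from *Ephb4* (40.4 CPM per kb) and *Erbb2* (32.8) over *Efnb2* (14.2), *Erbb4* (4.24), *Hbegf* (3.44), *Erbb3* (2.80) and *Egfr* (1.04) to *Nrg1* (0.671). Among neighbours in this order, the ranges of *Erbb4* and *Hbegf*, of *Hbegf* and *Erbb3*, and of *Egfr* and *Nrg1* overlapped over the 6 hearts. In *Pde2A-/-* hearts the order was the same except that *Erbb3* (2.98) and *Hbegf* (2.97) changed places within overlapping ranges. The lengths count every annotated exon base of a gene, and for *Nrg1* these are 10351 bases against 5415 in its longest coding transcript, so that its level per kilobase depends on the isoforms.

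The rest of the pathway was read from 8 lists of 116 genes in all, of which 37 had an adjusted p under 0.05 with edgeR, 32 higher and 5 lower, where 14.6% of all genes tested were called, 8.93% higher and 5.67% lower. The lists were written with earlier results of these data known, and their counts are a description. All genes tested include many weakly expressed ones, unlike most of the lists. With the stricter count filter filterByExpr, 4208 of 16853 genes were called, beside 3532 of 24177 in the main test. Each share of all genes given here is therefore low as a measure for well-expressed genes, and lists set beside it look more changed. Of 12 genes that act on the release of ErbB ligands from the membrane, 5 were higher and 0 lower, beside 8.93% higher among all genes. Their median log2 fold change was 0.17. The list mixes genes that aid release with an inhibitor, *Timp3*, which was among the 5. Markers of other cell types moved in the same hearts, with 11 of 12 macrophage, 9 of 10 erythroid, 13 of 15 hypoxia response and 4 of 10 fibroblast and cushion mesenchyme genes higher, and their part in these values was not tested. Erythroid markers summed to 522 to 1034 CPM in *Pde2A-/-* and 127 to 512 CPM in *Pde2A+/+* hearts, with a median log2 fold change of 3.21. *Rhbdf2*, the carrier of the sheddase ADAM17, was at 26.7 ± 6.52 CPM (SD, n = 5) and 16.6 ± 0.79 CPM (SD, n = 6), a log2 fold change of 0.68 (SE 0.13, edgeR adjusted p = 0.0049). The metalloproteases *Adam19*, *Adam15* and *Adam10* were higher by 0.44, 0.32 and 0.19 on the log2 scale, and *Timp3*, an inhibitor of ADAM17, by 0.46. In each of these 5 genes the genotypes did not overlap, as in 8.49% of all genes. *Adam17* itself had a log2 fold change of 0.06 (edgeR adjusted p = 0.30).

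Of the 9 other ErbB ligands 0 passed with edgeR, 2 had an unadjusted p under 0.05 and DESeq2 called 1, *Ereg*. Epiregulin, its product, binds EGFR and ErbB4, and its transcript was scarce, at 0.426 ± 0.148 CPM in *Pde2A-/-* and 0.204 ± 0.0914 CPM in *Pde2A+/+* hearts (log2 fold change 1.05, edgeR adjusted p = 0.0544). *Tgfa*, the most abundant of them, had 13.99 and 12.3 CPM (edgeR adjusted p = 0.155). Among 17 adaptors and brakes of the receptors 2 were higher and 0 lower, a share near the 8.93% higher among all genes. *Shc1*, an adaptor that couples ErbB receptors to Ras, was higher by 0.33 (SE 0.06, edgeR adjusted p = 0.0044), and *Lrig1*, which promotes the breakdown of ErbB receptors, by 0.18 (SE 0.05, edgeR adjusted p = 0.0303). This list held 6 called genes with DESeq2, which called 5145 of 24177 genes in all. It held 5 without *Pde2A-/-* heart B, where edgeR called 4438 of 23849 genes. It held 1 without *Pde2A-/-* heart 15, without *Pde2A+/+* heart 7 or E, or without hearts 7 and 11, and in each case *Lrig1* no longer passed.

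Targets and feedback inhibitors of the ERK pathway, which ErbB receptors and many others activate, were higher in 14 of 17 cases and lower in 0, beside 8.93% higher among all genes, with a median log2 fold change of 0.41. The immediate early gene *Fos* had 4.59, 6.09, 7.79, 17.3 and 16.2 CPM in *Pde2A-/-* hearts A, B, 14, D and 15, against 3.05 to 4.30 CPM in *Pde2A+/+* hearts (log2 fold change 1.54, SE 0.30, edgeR adjusted p = 0.0062). *Dusp4*, a phosphatase that acts on ERK, had 17.7, 24.2, 28.3, 33.7 and 33.0 CPM in the same hearts, against 11.6 to 13.9 CPM (log2 fold change 1.11, SE 0.14, edgeR adjusted p = 0.00021). Heart A was the lowest of its genotype in both genes and still above every *Pde2A+/+* heart. *Ier3* and *Spred3* were higher by 1.38 and 0.74, the former with overlapping genotypes. The mean log2 level of the list, set to 0 at the *Pde2A+/+* mean, was 0.14, 0.37, 0.61, 0.77 and 0.85 in *Pde2A-/-* hearts A, B, 14, D and 15. The 15 hypoxia response genes gave 0.15, 0.47, 1.21, 1.43 and 1.73 in the same hearts, with summed levels of 1415 to 3963 CPM in *Pde2A-/-* and 1270 to 1416 CPM in *Pde2A+/+* hearts. Macrophage markers were higher in 11 of 12 cases, with sums of 277 to 380.2 CPM against 134 to 219 CPM. Their part in the ERK pathway values was not tested.

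**Figure D5:**
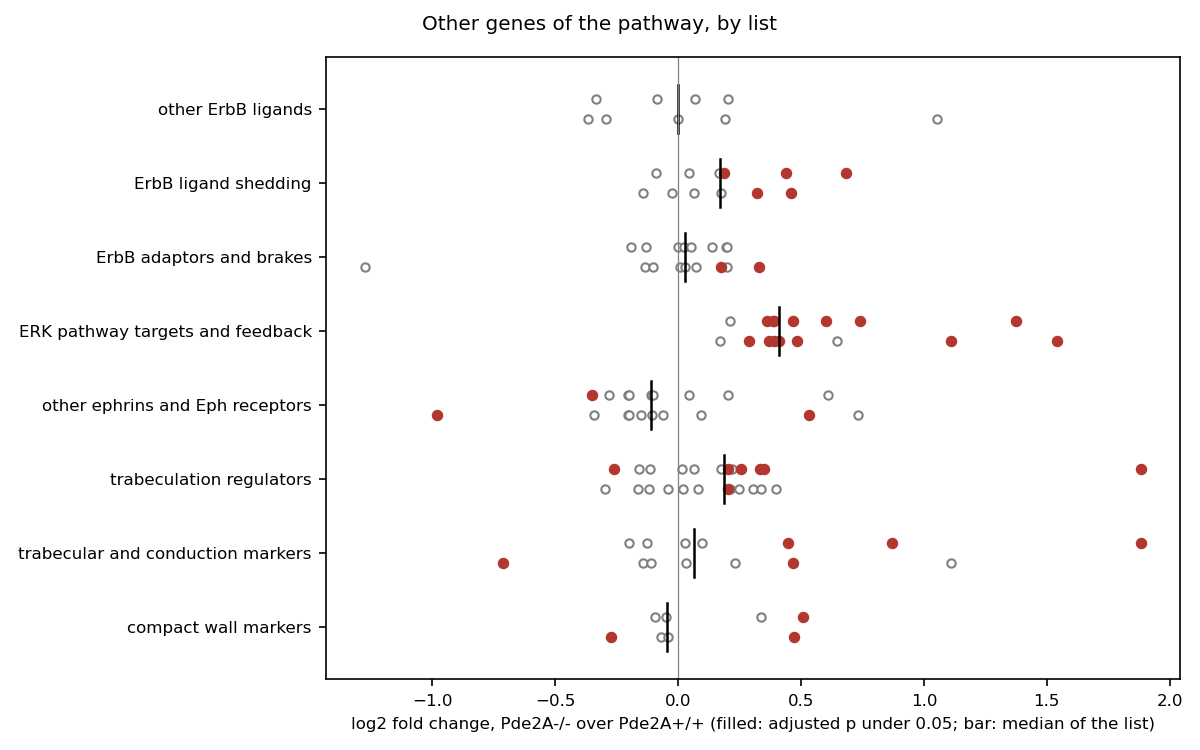
Log2 fold change, *Pde2A-/-* over *Pde2A+/+*, of each gene in the 8 lists, filled where the adjusted p of edgeR is under 0.05, with the median of each list as a black bar. All 17 ERK pathway genes lie above 0 and 14 are filled, while the 9 other ErbB ligands have 0 filled points.

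Of 24 further regulators of trabeculation 6 were higher and 1 lower, beside 8.93% higher and 5.67% lower among all genes. The same shares apply to the lists of trabecular and compact wall markers below. The 1 lower gene of the 24 is not a result about the list. Each library came from whole cardiac tissue, so atrial and trabecular sources of a transcript were not told apart. *Bmp10*, a cardiac growth factor, had 219, 239.9, 495, 516 and 506 CPM in *Pde2A-/-* hearts A, B, 14, D and 15, and 70.1 to 164 CPM in *Pde2A+/+* hearts. Every *Pde2A-/-* heart was above every *Pde2A+/+* heart, and 14, D and 15 stood apart from A and B. Its log2 fold change was 1.88 (SE 0.26, edgeR adjusted p = 0.00053). The matrix genes *Vcan* and *Adamts1*, whose product cleaves versican, were higher by 0.33 and 0.35, and *Fkbp1a*, whose loss in mice leads to excess trabeculae, was lower by 0.26 (edgeR adjusted p = 0.0131). *Notch1*, which acts in endocardium, was higher by 0.20 (edgeR adjusted p = 0.0295) but missed the threshold in 6 of the 19 other settings, each leaving out 1 heart, with adjusted p values of up to 0.0699 by edgeR. Among 14 trabecular and conduction markers 4 were higher, with *Nppa*, the atrial natriuretic peptide, at 2746 ± 563 CPM against 1500.5 ± 396 CPM (log2 fold change 0.87, edgeR adjusted p = 0.00999), and 1 lower, *Cpne5* at -0.71. *Irx5*, a transcription factor of the conduction system, was higher by 0.45 (edgeR adjusted p = 0.0360) and missed the threshold in 8 of the 19 settings. *Bmp10* and *Etv1* (0.47) count in 2 of the lists. Of 8 compact wall markers, the proliferation gene *Mki67* (0.47) and the Wnt receptor *Fzd1* (0.51) were higher and *Nkx2-5* (-0.27), a cardiac transcription factor, was lower. The call of *Fzd1* was lost in 8 of the 19 settings, with log2 fold changes down to 0.36 and adjusted p values of up to 0.0899 by edgeR.

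Of the 19 other ephrins and Eph receptors 1 was higher and 2 lower, beside 8.93% higher and 5.67% lower among all genes, and such counts are not a result about the list. *Ephb1*, a receptor for the B ephrins, had 3.97, 2.97, 3.88, 4.05 and 3.33 CPM in *Pde2A-/-* hearts A, B, 14, D and 15 and 5.43 to 9.13 CPM in *Pde2A+/+* hearts, without overlap (log2 fold change -0.98, SE 0.14, edgeR adjusted p = 0.00085). *Epha2* was higher by 0.53 (edgeR adjusted p = 0.0094) and *Efnb3* lower by 0.35 (edgeR adjusted p = 0.0467), both with overlapping genotypes. *Efnb3* missed the threshold in 8 of the 19 settings, each leaving out 1 heart, with adjusted p values of up to 0.12 by edgeR. DESeq2 called 5 genes of this list, and 5145 of 24177 genes in all.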

How the data were processed

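The authors mapped single-end reads from stranded libraries to GRCm38 with STAR, whose version is not given in the sources used here, and deposited unnormalized whole-number counts per gene for each heart. The sense-strand column was used. Between 19.6 and 22.4% of reads were on no single gene and stayed out. Names, positions and exon lengths came from GENCODE M21 (55141 of 55487 identifiers matched) and promoters from RefSeq.

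Genes reaching 10 counts in sum over all 11 hearts were tested with edgeR 4.0.16 in R 4.3.3 (TMM, quasi-likelihood test, Benjamini-Hochberg adjustment), and an adjusted p under 0.05 is a call. The alternatives, among them DESeq2 1.42.0, are given in the closing section. Ratios and shares were compared by exact permutation tests over 462 splits, with a prior count of 2 for log2 CPM in the ratios. Named are the members, up to 4 called genes per list with the largest change and a mean of at least 1 CPM, calls in lists with at most 5, and the 3 nearest profiles per member. The other genes named, *Adam17*, *Ereg*, *Tgfa*, *Notch1*, *Grb7*, those beside *Erbb2* and, in the closing section, *Dusp5*, *Myc*, *Numb*, *Phlda1* and *Spred2*, were chosen after their values were seen. The members and lists were chosen with earlier results of these data known. In simulated counts of 23640 genes, 55 of 100 genes with a log2 change of 0.5 were recovered and 87 of 100 with a change of 1, beside 9 wrong calls. Hearts of the same genotype differed by at least 19.2 times the squared counting error, so no library was a recount of another. This cannot show that hearts came from separate litters. The p-values measure the spread between hearts and take the hearts as independent.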

Additional observations from a re-analysis of the deposited data

How the results depend on the processing

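None of the called members, ratios and shares changed direction under the alternatives run: the DESeq2 test, edgeR with the size factors of DESeq2, filterByExpr, no filter on counts, counts of both strands, no globin genes, the naming style as covariate, a prior count of 0.5 and each heart left out. The number of members called was 1, and 2 with the naming style as covariate, 0 with a fold change of at least 1.5 required, and 1 to 2 with each heart left out in turn. The 7 ratios called became 4 to 9 when 1 heart was left out, 4 without *Pde2A-/-* heart 14 or *Pde2A+/+* heart 7, 8 or E. Leaving out hearts also raises the smallest p that the exact test can give. The 37 pathway genes called became 28 to 47 under the other settings, and 27 of the 37 passed in every one. Without *Pde2A+/+* hearts 7 and 11 together, chosen after their lung and thymus markers were seen, 29 passed. *Lrig1*, *Dusp5*, *Efnb3*, *Fzd1*, *Irx5*, *Myc*, *Notch1*, *Numb*, *Phlda1* and *Spred2* missed the threshold in at least 1 setting, and the cause was not tested. Over all genes, 3532 were called, 1702 without *Pde2A-/-* heart D and 5145 with DESeq2. With the longest coding transcript as gene length, a choice added after the data were seen, the *Erbb2* share differed by -5.97 percentage points. No paired analysis was possible because the replicate names of the hearts are not shared between the genotypes. A member without a call is not shown to be unchanged, since edgeR recovered 55 of 100 differences of 0.5 on the log2 scale in the test on simulated counts. That test changed 200 genes, against 3532 called in the data, and was not set to the levels of the members. Its rate of recovery therefore need not hold for them.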

Other observations

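The genes around *Erbb2* on chromosome 11 were read after its values were known. Of 13 annotated genes whose bodies lie within 100 kb of it, 6 had a mean of at least 1 CPM. By edgeR's adjusted p 3 of the 6 were lower in *Pde2A-/-* hearts and 0 higher, beside 5.67% lower among all genes. That share includes genes under 1 CPM, so the comparison is not like for like. In 5 of the 6 the fold change was below 0 on the log2 scale. *Tcap*, which encodes the sarcomere protein telethonin and ends 27.5 kb before *Erbb2*, had 44.1 ± 8.03 CPM (SD, n = 5) and 81.3 ± 14.8 CPM (SD, n = 6), without overlap, a log2 fold change of -0.88 (SE 0.13, edgeR adjusted p = 0.0010). *Stard3*, a cholesterol transfer protein of late endosomes, was lower by 0.20 (edgeR adjusted p = 0.0379). *Gm12352* begins 0.321 kb past the end of *Erbb2*. Annotated as antisense, it lies on the same strand as *Erbb2* and opposite to *Mien1*. It was lower by 0.88 (edgeR adjusted p = 0.0286) at 1.27 and 2.35 CPM. *Mien1*, which overlaps the end of *Erbb2* on the opposite strand and was counted apart from it, had a log2 fold change of -0.11 (edgeR adjusted p = 0.31). *Grb7*, whose product binds ErbB2, had 2.06 and 3.51 CPM in *Pde2A+/+* hearts 7 and 11, which hold the lung markers, and 0.36 to 0.97 CPM in the other hearts.

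The genes whose profile over the 11 hearts was nearest to a member, by the root mean square difference of log2 CPM after centring on the gene's mean, were sought among 11343 genes averaging 5 CPM or more. For *Erbb2* they were *Ddr1*, *Extl3* and *Speg*, at 0.0493, 0.0606 and 0.0649, against a spread of 0.185 of *Erbb2* itself. *Ddr1* is a collagen receptor kinase and *Speg* a kinase of the striated muscle sarcoplasmic reticulum junctions. For *Erbb4* they were *Bmpr1a*, a BMP receptor, *Galc* and *Rest*, at 0.0439, 0.0476 and 0.0495. *Nrg1* had no neighbour as close, with *Lyl1*, *Sorl1* and *Rab3d* at 0.181, 0.202 and 0.205. *Efnb2* lay nearest to *Cdc42bpa* (0.0520), *Rbm25* (0.0542) and *Ankrd10* (0.0576), and *Ephb4* to *Mast2* (0.0441), *Smad5* (0.0458) and *Ginm1* (0.0468). For *Hbegf* the nearest were *Lmcd1*, *Galt* and *Actr3* at 0.116, 0.117 and 0.119, for *Egfr* *Ahr*, *Susd4* and *Boc* at 0.162, 0.164 and 0.178, and for *Erbb3* *Vill*, *Gm46430* and *Paxx* at 0.0876, 0.102 and 0.107. These distances share the libraries and their depth and are descriptions.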
